A study of Mus musculus with 22 samples.

Results

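The comparison concerned how the response of breast fat to a tumor growing in it differed between obese and lean mice. It was measured as the tumor effect in obese mice minus the tumor effect in lean mice. Female C57Bl/6 wildtype mice were fed regular chow (lean, 5 mice) or a high fat diet, HFD (obese, 6 mice), for 16 weeks. Every mouse then received E0771 breast cancer cells, a mouse mammary carcinoma line, in a mixture of PBS and Matrigel in the left inguinal pad and PBS with Matrigel alone in the right one, and both pads were taken 2 weeks later without the lymph node. The left pad gave the tumor-associated inguinal white adipose tissue (IWAT) and the right pad the control IWAT. The control pad was thus from an animal that carried a tumor on its other side, and the tumor-associated sample was the fat of the tumor-bearing pad after the thin layer covering the tumor had been discarded and the outermost fat left out. No library came from a mouse without a tumor, so what the tumor did to the opposite pad cannot be told apart from what the diet did to it. The study reports larger tumors in HFD-fed than in chow-fed mice, and the labels give no tumor weight. Diet and tumor size therefore cannot be told apart in any obese minus lean difference below.

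RNA sequencing of ribosomal RNA-depleted total RNA gave 22 libraries, 1 from each pad of the 11 mice, so that the mouse was the unit of replication. For each mouse the change from the right to the left pad was taken in log2 CPM, the counts scaled to the size of the library, and is called its tumor change. The members were all genes that passed a filter on low counts, 14458 of the 23420 genes counted. The quantity tested for each gene was the obese minus lean difference in a fit of edgeR over the 22 libraries. It compares the fitted levels of the 4 groups and is not the difference of the mean per-mouse changes. For Ccl19, for example, the fit gave -4.08 and the per-mouse means gave -1.98. Tumor changes of a diet group as a whole are from this fit, and those of single mice are in log2 CPM. A positive difference of a gene can come from a larger rise in obese mice or from a fall in lean mice, and both changes are given for the genes described in most detail. Errors of differences are standard errors derived from the test, as the size of the difference over the square root of its F statistic. Adjusted p-values are from edgeR's quasi-likelihood test with Benjamini-Hochberg adjustment over all 14458 genes. This fit treated the pads of a mouse as independent libraries.

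White fat stores triglyceride in adipocytes, which share the tissue with fibroblasts, capillary cells, macrophages and, in the female inguinal pad, the ducts of the mammary gland. A tumor growing in the pad draws in monocytes that become macrophages, remodels the collagen matrix and consumes oxygen and glucose. Cells short of oxygen or dividing fast raise glycolysis, the pathway from glucose to pyruvate and lactate, and cells that secrete much protein raise the chaperones of the endoplasmic reticulum (ER), a program called the unfolded protein response. The tissue is a mixture, so fewer cells of a type and less RNA per cell cannot be told apart in any value below.

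Marker genes of several cell types stood at other levels in obese tumor-associated pads than in the other groups. The summed level of 20 mammary epithelial genes was 2056 to 4014 CPM in lean control pads, 2111 to 4419 CPM in lean tumor-associated pads, 945 to 1982 CPM in obese control pads and 318 to 1107 CPM in obese tumor-associated pads. A list of 10 germline and embryonic genes, which are silent in most adult tissues, summed to 0.348 to 2.45, 0.622 to 9.09, 5.99 to 85.7 and 40.1 to 999.7 CPM in the same order. That list was chosen on these libraries by an earlier analysis and is no independent evidence. The 20 adipocyte genes were expressed in every library, with sums of 12429 to 16406, 8320.5 to 14005, 13698 to 24147 and 1919 to 11807 CPM. The tumor change of these lists was most extreme in obese mice 0 and 4 and least in obese mouse 1. The mean tumor change of the epithelial genes was -2.69 and -3.63 in the former and 0.30 in the latter, and that of the germline genes was 4.97, 6.93 and 1.69. The part of these shifts in the differences below was not tested. The median of a gene list is given also without mice 0 and 4 where that turned its sign or moved it by over 1.5 times, and of the 42 called genes reported here under the naming rule only Pde7a and Ccr2 passed without them. The control pads of obese mice 1 and 3 stood apart in lymphocyte genes. Their sums over 19 T and NK cell genes were 483 and 501 CPM, against 33.2 to 38.4 CPM in the other obese control pads, and over 11 B and plasma cell genes 869.6 and 852 against 71 to 98.3 CPM. The control pad of obese mouse 1 also held 1139 CPM of 7 skeletal muscle genes, against 67.6 to 103 CPM in the others. Without these 2 control pads, an alternative chosen after seeing the data, edgeR called 726 genes, 253 positive and 473 negative, of which 405 were among those called from all libraries. Libraries held 5759775 to 8598108 counts on genes, so low CPM values rest on few reads.

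Of the 14458 genes, edgeR called 711 (4.92%) at an adjusted p under 0.05, 373 (2.58%) with a positive and 338 (2.34%) with a negative difference. The called differences ran from -4.24 to 5.14 on the log2 scale. Among genes called with a positive difference the median difference was 1.06, with a median tumor change of 0.03 in lean and 1.10 in obese mice. Genes called with a negative difference had a median of -1.19, against 0.00 in lean and -1.12 in obese mice. Over all genes the medians were -0.04 for the difference, 0.01 for the lean and -0.02 for the obese tumor change. Tested on their own, 473 genes (3.27%) were higher and 132 (0.913%) lower in tumor-associated than in control pads of lean mice. In obese mice 3879 genes (26.8%) were higher and 4003 (27.7%) lower.

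**Figure D1:**
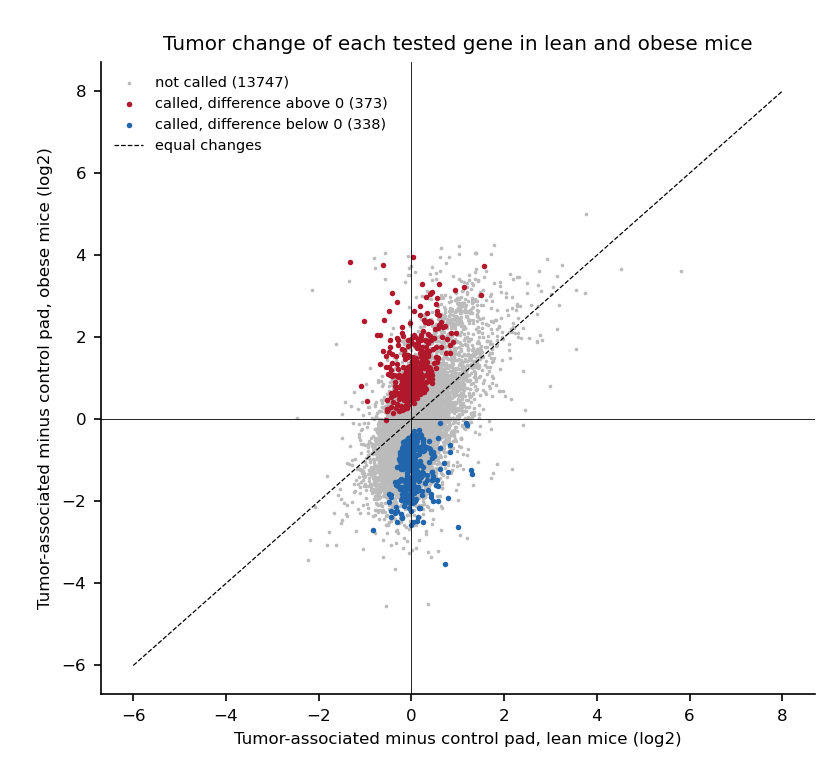
Tumor change of each of the 14458 genes in lean mice (horizontal axis, log2) and in obese mice (vertical axis, log2), with the 711 genes called for the obese minus lean difference in color. Called genes lay along the vertical axis, with a median lean change of 0.03 for the 373 with a positive and 0.00 for the 338 with a negative difference.

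Per mouse, the tumor changes of the 6 obese mice lay wholly above those of the 5 lean mice for 651 genes (4.5%) and wholly below them for 671 genes (4.64%). Each of these 1322 genes has the smallest p that an exact permutation test over the divisions of the 11 mice into 5 and 6 can give, 0.00433, which is 0.0473 after adjustment. Of the 711 called genes, 494 (69.5%) were among them.

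The number of calls was not stable, and many genes lay close to the threshold. The smallest adjusted p was 0.0163, the largest unadjusted p of a called gene was 0.00244, and 3220 genes had an adjusted p under 0.1. At an unadjusted p under 0.05 there were 2289 positive (15.8%) and 2471 negative (17.1%) differences. Without 1 library the calls ran from 1 to 3568. They were 23, 26, 4, 4 and 143 without the control pads of lean mice 0, 2, 3, 6 and 9, and 1, 83, 6, 777 and 2 without their tumor-associated pads. Without the control pads of obese mice 0, 1, 2, 3, 4 and 8 they were 2, 251, 686, 100, 2 and 162, and without their tumor-associated pads 1, 3568, 34, 1486, 850 and 1384. Without both pads of lean mouse 3, lean mouse 9 or obese mouse 0 edgeR called 0 genes, while 3856, 3774 and 3596 genes kept an unadjusted p under 0.05. In each of these 33 fits without 1 library or 1 mouse, every gene of the 711 that was still tested kept its sign and an unadjusted p under 0.05. With the mouse as a block the 3 fits without those mice called 6, 36 and 32 genes, and 709 of the 711 kept an unadjusted p under 0.05 in that without lean mouse 9. With obese mice 0 and 4 both left out, an alternative chosen after seeing the data, edgeR called 5 genes and 2599 had an unadjusted p under 0.05. Of the 711 genes 707 were still tested then, and all 707 kept their sign and an unadjusted p under 0.05. The 711 genes were chosen from these same libraries, and each of these fits reuses most of them. That the genes kept their sign and such a p was thus largely fixed in advance and is no independent support.

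**Figure D2:**
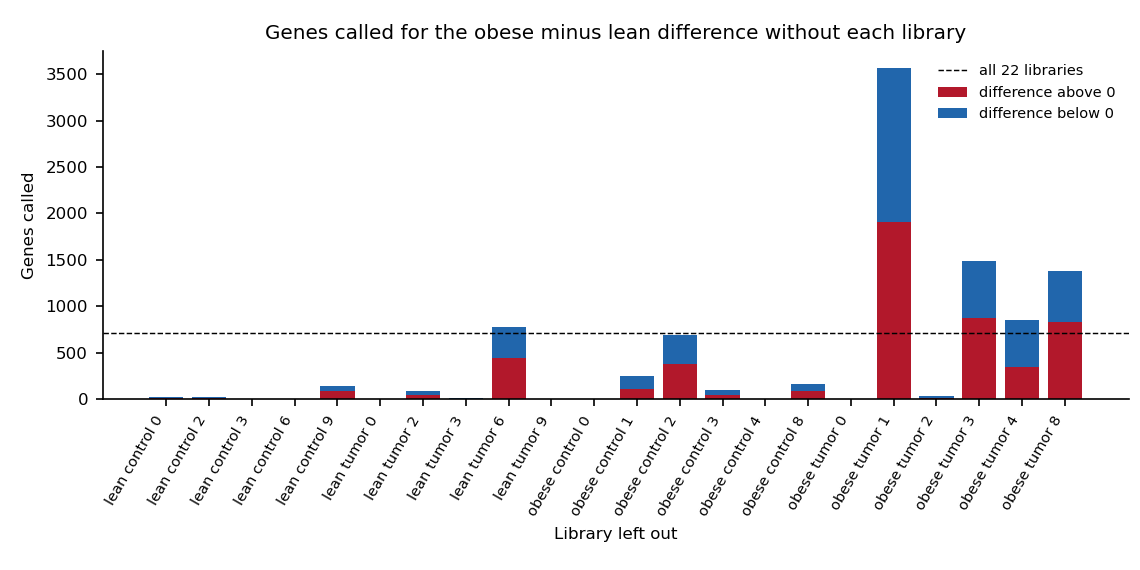
Number of genes called for the obese minus lean difference (vertical axis) when each of the 22 libraries is left out in turn (horizontal axis), stacked by the sign of the difference, with the 711 calls of all libraries as a dashed line. Counts ran from 1 without the tumor-associated pad of lean mouse 0 or obese mouse 0 to 3568 without the tumor-associated pad of obese mouse 1.

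Genes of glycolysis showed a higher tumor change in obese than in lean mice. Of 21 tested genes of glycolysis and the hypoxia response, 8 were called with a positive and 0 with a negative difference, beside 2.58% and 2.34% of all genes, and 15 and 2 had an unadjusted p under 0.05 in each direction. The median difference was 0.91, beside -0.04 over all genes, with a median tumor change of -0.32 in lean and 0.82 in obese mice. It was 0.77 without obese mice 0 and 4. The mean tumor change over the list was -0.22 to 0.05 in the lean mice and 0.24 to 1.05 in the obese mice, and these ranges did not overlap.

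Gapdh, the enzyme that oxidizes glyceraldehyde 3-phosphate (chr6:125161715-125166467, minus strand, GRCm38), had 320.5, 338, 429.7, 587 and 246 CPM in the control pads of lean mice 0, 2, 3, 6 and 9 and 267, 242, 299.8, 416 and 211 CPM in their tumor-associated pads. In obese mice it had 189 to 277 (median 209) CPM in control and 317 to 1122 (median 644) CPM in tumor-associated pads. It was lower in the tumor-associated than in the control pad of all 5 lean mice and higher in all 6 obese mice. The tumor change was -0.42 (adjusted p = 0.566) in lean and 1.60 (adjusted p = 0.000101) in obese mice, and the difference was 2.02 ± 0.39 (adjusted p = 0.0337). Pkm, the pyruvate kinase that ends glycolysis (chr9:59656368-59679375, plus strand), had tumor changes of -0.27, -0.55, -0.58, -0.54 and -0.27 in the 5 lean mice. In the obese mice they were 0.58 to 1.55 with a median of 1.00. Again the groups lay on either side of 0, and the difference was 1.54 ± 0.30 (adjusted p = 0.032). Control pads of obese mice held less Pkm than those of lean mice, with medians of 334 and 593 CPM, while the medians of the tumor-associated pads were 699 and 476 CPM.

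Pgk1, phosphoglycerate kinase (chrX:106187100-106203699, plus strand), had 54.6, 76.1, 94.6, 94.2 and 58.5 CPM in lean control and 57.3, 62, 57.7, 76.8 and 48 CPM in lean tumor-associated pads. Obese control pads had 55 to 82.1 (median 67.3) CPM and obese tumor-associated pads 81 to 326 (median 176) CPM. Control pads overlapped between the diets, and the difference in tumor change was 1.86 ± 0.37 (adjusted p = 0.0373). Ldha, which turns pyruvate into lactate (chr7:46841475-46855627, plus strand), had tumor changes of -0.58 to -0.10 in lean and 0.28 to 1.21 in obese mice and a difference of 1.18 ± 0.25 (adjusted p = 0.0373). For Gpi1, glucose phosphate isomerase (chr7:34201330-34230336, minus strand), the changes were -0.61 to -0.15 and 0.28 to 0.98 and the difference 1.09 ± 0.23 (adjusted p = 0.0373). Gapdh was not part of the list and was named for its small p-value. The other genes of the list that passed were chosen for naming after their values were seen. They were the glucose transporter Slc2a1 with a difference of 1.73, the phosphofructokinase Pfkp with 0.89, the mutase Pgam1 with 1.45 and the collagen prolyl hydroxylase P4ha1 with 0.71. Gapdh, Pgk1, Pkm, Ldha and Pgam1 have near-identical processed copies elsewhere in the genome, with which reads could have been shared.

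Other genes that cells raise when oxygen is low were not called. The differences of Vegfa, the main growth factor for vessels, Adm, a vasodilator peptide, Bnip3, a mitophagy receptor, and Ndrg1 were -0.33, -0.94, -1.01 and -0.31, with adjusted p-values of 0.248, 0.13, 0.0865 and 0.344. Egln3, an oxygen sensor, and Car9, a carbonic anhydrase, had differences of 1.99 and 1.03 and did not pass either (adjusted p = 0.0739 and 0.41). These 6 genes too were chosen for naming after their values were seen.

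**Figure D3:**
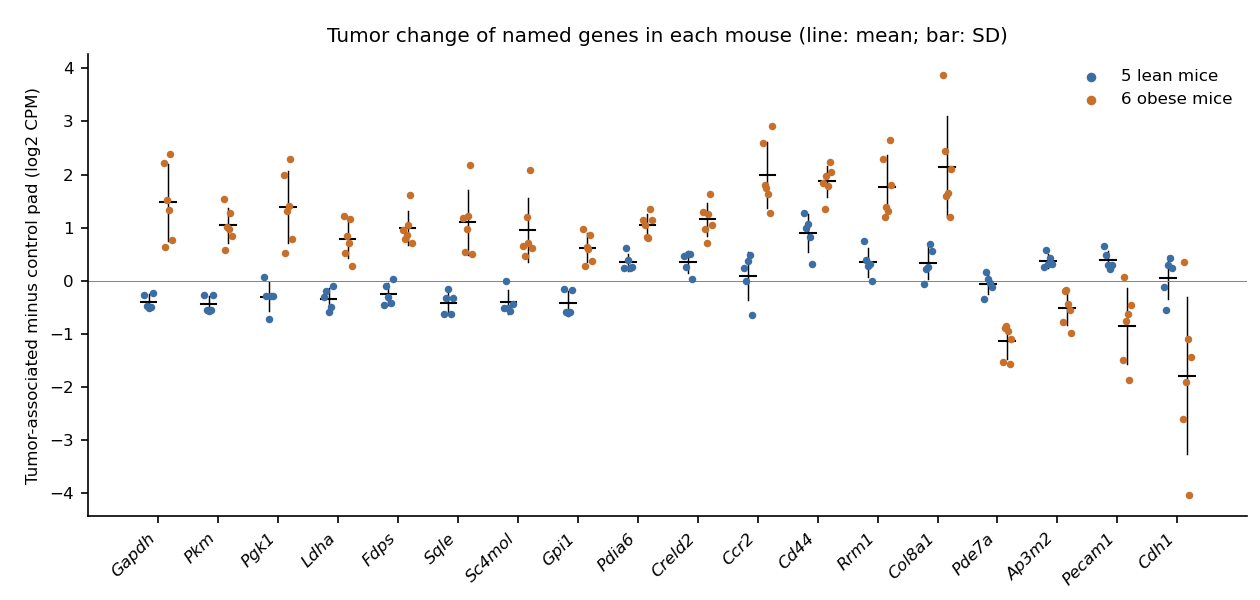
Tumor change (tumor-associated minus control pad, log2 CPM) of each lean and each obese mouse for selected genes, 1 point per mouse, with the mean as a line and the SD as a bar. For Pkm the 5 lean mice lay between -0.58 and -0.27 and the 6 obese mice between 0.58 and 1.55, and for Pde7a the lean mice lay between -0.34 and 0.16 and the obese mice between -1.57 and -0.85.

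The upstream sequences of Pgk1 and Ldha are shown because the core of the hypoxia response element, ACGTG, stood in them more than once. They are the 250 bases before the gene's start in RefSeq (GRCm38.p6), printed in the direction of transcription, with each match on either strand in capitals. The Pgk1 window is chrX:106186850-106187099 on the plus strand, with matches that begin 150 and 131 bases before the start, and the Ldha window is chr7:46845554-46845803 on the plus strand, with matches at 145, 144, 48, 47 and 34 bases. Neighbouring positions mark CACGTG, the E-box, which holds ACGTG on both strands.
Pgk1: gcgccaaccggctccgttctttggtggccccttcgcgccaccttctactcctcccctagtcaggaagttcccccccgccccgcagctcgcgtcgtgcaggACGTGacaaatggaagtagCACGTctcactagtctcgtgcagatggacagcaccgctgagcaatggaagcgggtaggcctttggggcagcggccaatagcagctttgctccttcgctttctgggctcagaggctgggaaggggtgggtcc
Ldha: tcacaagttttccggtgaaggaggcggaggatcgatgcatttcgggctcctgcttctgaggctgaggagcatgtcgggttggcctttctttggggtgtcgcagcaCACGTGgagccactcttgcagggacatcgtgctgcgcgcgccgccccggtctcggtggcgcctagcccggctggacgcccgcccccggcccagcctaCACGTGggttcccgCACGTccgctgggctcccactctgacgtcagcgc
The core stood in the window of 4998 of 27025 genes with a RefSeq promoter (18.5%) and of 24.1% of the tested genes. Among genes called with a positive difference it was in 107 of 299 (35.8%), and among those with a negative difference in 57 of 267 (21.3%). Of the glycolysis and hypoxia list 14 of 20 genes had it, Vegfa and Bnip3 among them. A match of 5 letters is a description of the window and not evidence of a bound factor.

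Genes of mitochondrial respiration fell in tumor-associated pads of lean mice. Of 42 nuclear-encoded respiratory chain genes, 26 fell in lean mice and 8 in obese mice, beside 0.913% and 27.7% of all genes. The difference was positive in 39, with a median of 0.33, 17 of them at an unadjusted p under 0.05 (15.8% of all genes), but only Atp5g1, Cox7b and Sdhb were called. The median was 0.36 without obese mice 0 and 4. Sdhb, the iron-sulfur subunit of succinate dehydrogenase, had 105, 129, 159, 156 and 112 CPM in lean control and 80, 81.3, 98.8, 106 and 86 CPM in lean tumor-associated pads. In obese mice it had 65.6 to 85.1 (median 74.1) and 66.5 to 76.3 (median 73.9) CPM. It fell in lean mice by 0.54 on the log2 scale (adjusted p = 0.0081), had a change of -0.02 (adjusted p = 0.89) in obese mice, and the difference was 0.53 ± 0.15 (adjusted p = 0.0494). Levels of obese control pads overlapped those of lean tumor-associated pads.

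Cox7b, a subunit of cytochrome c oxidase, had tumor changes of -0.74 to -0.14 in lean and 0.08 to 0.71 in obese mice, with a difference of 0.78 ± 0.20 (adjusted p = 0.0463). Atp5g1, a subunit of the ring of ATP synthase, had changes of -0.13 to 0.26 and 0.36 to 0.98 and a difference of 0.65 ± 0.14 (adjusted p = 0.0373). Of 14 genes of the tricarboxylic acid cycle 10 fell in lean and 7 in obese mice, beside 0.913% and 27.7% of all genes. Among them Dlst, a subunit of 2-oxoglutarate dehydrogenase, was called for the difference, 0.53 ± 0.15 (adjusted p = 0.0484). Fatty acid oxidation genes also fell in lean mice, with a median tumor change of -0.62, but had no called difference. Of the 16 genes 9 fell in lean and 13 in obese mice, beside 0.913% and 27.7% of all genes. None was called for the difference in edgeR or had an unadjusted p under 0.05, and the median difference was -0.02, or 0.19 without obese mice 0 and 4. Hadha, of the mitochondrial trifunctional protein, had a difference of 0.38 ± 0.24 (adjusted p = 0.261), and Cpt1a, which admits fatty acids to mitochondria, -0.42 ± 0.27 (adjusted p = 0.27).

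The mean log2 tumor change of cholesterol synthesis genes had opposite signs in lean and obese mice. Over 18 genes it was -0.51 to -0.21 in the lean mice and 0.15 to 0.44 in the obese mice. Every lean mouse thus lay below 0 and every obese mouse above it. This did not hold for the summed level of the list. The sum fell in every lean mouse, but in obese mice 0, 4 and 8 it fell as well. There it went from 1007 to 836, 1413 to 1134 and 1367 to 1172 CPM. In obese mice 1, 2 and 3 it rose, from 873 to 935, 860 to 1001 and 980 to 1081 CPM. The median difference was 0.79, 0.68 without obese mice 0 and 4, and 4 genes were called, all positive (2.58% of all genes), with 10 at an unadjusted p under 0.05. In obese mice 8 genes rose and 1 fell, and in lean mice 1 fell, beside 26.8%, 27.7% and 0.913% of all genes. Sqle, squalene epoxidase (chr15:59315077-59331192, plus strand), had 51.6, 46.4, 59.6, 89 and 26.8 CPM in lean control and 33.2, 36.8, 53.5, 57.3 and 21.5 CPM in lean tumor-associated pads. In obese mice it had 14.7 to 25.5 (median 18.8) CPM in control and 25 to 81.9 (median 39.7) CPM in tumor-associated pads. Every obese control pad lay below every lean control pad, whereas the tumor-associated pads overlapped. The difference was 1.63 ± 0.43 (adjusted p = 0.0463).

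Sc4mol, a sterol methyl oxidase, and Fdps, farnesyl diphosphate synthase, gave differences of 1.47 ± 0.35 (adjusted p = 0.0396) and 1.34 ± 0.39 (adjusted p = 0.0488). Their tumor changes were -0.56 to -0.00 and -0.45 to 0.03 in lean mice and 0.47 to 2.08 and 0.70 to 1.61 in obese mice, without overlap. The falls of Sqle, Sc4mol and Fdps in lean mice were not called (adjusted p = 0.606, 0.479 and 0.756). Fdps stood at the threshold and was called in 6 of the 22 fits without 1 library.

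Fatty acid synthesis had no called difference. Acly, which makes the acetyl-CoA for it, had 3709.9, 2832, 3767, 8344 and 2036 CPM in lean control and 1800.0, 798, 1547, 4625 and 1267 CPM in lean tumor-associated pads, but 194 to 243 (median 213) and 186 to 267 (median 228) CPM in those of obese mice. Its tumor changes of -1.83 to -0.68 in lean and -0.39 to 0.27 in obese mice did not overlap. The difference of 1.15 ± 0.49 was not called (adjusted p = 0.114) but passed with the mouse as a block (adjusted p = 0.0265). Elovl6, which elongates palmitate, likewise had a difference of 1.91 ± 0.68, with an adjusted p of 0.0723 and of 0.037 with the block. None of the 14 genes of the list was called in edgeR, 3 had an unadjusted p under 0.05, and the median difference was -0.00, or 0.39 without obese mice 0 and 4. Fasn, fatty acid synthase, and Scd1, a desaturase, had differences of 0.25 and -0.02 and were chosen for naming after their values were seen.

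Most genes of the unfolded protein response rose in tumor-associated pads of obese mice, and fewer passed in lean mice. Of 16 genes of the unfolded protein response 7 rose in lean and 12 in obese mice, beside 3.27% and 26.8% of all genes, and none fell in either. The difference was called for 5 genes, all positive, beside 2.58% of all genes, with a list median of 0.44 and of 0.39 without obese mice 0 and 4. The mean tumor change over the list was 0.16 to 0.42 in lean and 0.56 to 1.07 in obese mice. Pdia6, a protein disulfide isomerase (chr12:17266545-17284770, plus strand), had 169.5, 150.3, 174, 174 and 149 CPM in lean control and 200.4, 230.4, 229.6, 207 and 177 CPM in lean tumor-associated pads. Obese control pads had 139.8 to 167 (median 156) CPM and obese tumor-associated pads 286 to 380.4 (median 318) CPM. All 6 obese tumor-associated pads lay above every other library. The tumor change was 0.35 (adjusted p = 0.0369) in lean and 1.06 (adjusted p = 2e-07) in obese mice, with a difference of 0.71 ± 0.13 (adjusted p = 0.031).

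Creld2, a chaperone-like protein secreted under ER stress (chr15:88819646-88826683, plus strand), had tumor changes of 0.04 to 0.50 in lean and 0.71 to 1.63 in obese mice and a difference of 0.81 ± 0.15 (adjusted p = 0.031). Hsp90b1, the HSP90 of the ER, and Pdia4, another disulfide isomerase, gave differences of 0.57 ± 0.15 (adjusted p = 0.0463) and 0.55 ± 0.15 (adjusted p = 0.0463), with tumor changes of 0.36 (adjusted p = 0.0816) and 0.44 (adjusted p = 0.0267) in lean and 0.94 (adjusted p = 2.85e-06) and 0.99 (adjusted p = 9.52e-07) in obese mice. Neither passed with the mouse as a block, where the adjusted p was 0.073 and 0.077. The difference of Pdia3, which folds glycoproteins and was chosen for naming after its value was seen, was 0.44. The regulators Xbp1 and Atf4 had differences of -0.09 and 0.90 and were not called (adjusted p = 0.783 and 0.0588). They too were chosen after their values were seen.

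The upstream windows of Hsp90b1, Pdia6 and Creld2 are shown because they hold the ER stress response element, searched on both strands as CCAAT and CCACG with 9 bases of any kind between them and printed in capitals. The windows are chr10:86705445-86705694 on the minus strand for Hsp90b1, with matches that begin 212 and 107 bases before the start, chr12:17266339-17266588 on the plus strand for Pdia6, with 1 at 98, and chr15:88819396-88819645 on the plus strand for Creld2, with 1 at 126 (RefSeq, GRCm38.p6). Those of Hsp90b1 and Pdia6 overlap the GENCODE span of the gene at its start.
Hsp90b1: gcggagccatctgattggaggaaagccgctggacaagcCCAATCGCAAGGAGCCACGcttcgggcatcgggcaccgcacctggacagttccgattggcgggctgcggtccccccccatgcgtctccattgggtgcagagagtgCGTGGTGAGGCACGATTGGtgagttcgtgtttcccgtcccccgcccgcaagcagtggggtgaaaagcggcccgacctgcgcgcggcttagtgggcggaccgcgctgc
Pdia6: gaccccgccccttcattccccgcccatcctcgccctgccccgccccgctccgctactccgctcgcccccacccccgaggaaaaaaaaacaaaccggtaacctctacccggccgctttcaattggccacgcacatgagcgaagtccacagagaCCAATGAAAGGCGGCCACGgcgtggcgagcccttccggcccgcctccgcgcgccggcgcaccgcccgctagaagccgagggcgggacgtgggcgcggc
Creld2: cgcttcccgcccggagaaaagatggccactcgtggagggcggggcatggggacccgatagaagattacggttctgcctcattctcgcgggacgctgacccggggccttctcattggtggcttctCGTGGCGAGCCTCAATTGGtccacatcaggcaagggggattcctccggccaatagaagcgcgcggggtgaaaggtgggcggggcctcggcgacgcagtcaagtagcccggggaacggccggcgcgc
The element stood in 35 of the 27025 genes with a promoter window (0.13%) and in 0.167% of those tested. Of the unfolded protein response list 6 of 15 genes had it, Hspa5, Calr and Canx being the others, while Pdia3 and Pdia4 had no match in this window. It was in 3 of 299 genes called with a positive difference, those printed here, and in 0 of 267 called with a negative one. The element overlaps the hypoxia core where TG follows its last letters. For cholesterol synthesis a form of the sterol response element, TCAC and CCAC with 1 base between them, was found in 1 of 12 genes, Hmgcs1, and in 1.22% of all promoters.

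Ccr2, a receptor of incoming monocytes, and Cd44, a receptor of activated cells, had positive differences. Ccr2, the receptor by which monocytes follow Ccl2 (chr9:124101950-124113557, plus strand), had 84.9, 115, 67.7, 51.7 and 109 CPM in lean control and 101, 114, 87.9, 72.6 and 69.2 CPM in lean tumor-associated pads. In obese mice it had 31.8 to 56.5 (median 40.5) CPM in control and 84.6 to 242 (median 183) CPM in tumor-associated pads. It rose in obese mice, by 2.06 (adjusted p = 4.59e-06), while the lean change was 0.06 (adjusted p = 0.989), and the difference was 2.00 ± 0.35 (adjusted p = 0.031). It was 1 of the 5 genes still called without obese mice 0 and 4, where the difference was 1.98.

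Cd44, the hyaluronan receptor (chr2:102811141-102901665, minus strand), had 67.4, 83.1, 58.5, 85.2 and 91 CPM in lean control, 163, 166, 124, 151 and 114 CPM in lean tumor-associated, 87.3 to 121 (median 110.4) CPM in obese control and 310.0 to 455 (median 402) CPM in obese tumor-associated pads. The obese tumor-associated pads lay above every other library. It rose by 0.90 in lean and 1.88 in obese mice, and the difference was 0.98 ± 0.18 (adjusted p = 0.031). Cd63, a tetraspanin of lysosomes and exosomes, had a difference of 0.91 ± 0.21 (adjusted p = 0.0379), although lean mouse 2 (0.77) overlapped the obese mice (0.64 to 1.80). Col8a1, a short-chain collagen of vessel walls, had a difference of 2.07 ± 0.51 (adjusted p = 0.0416), with tumor changes of -0.06 to 0.69 in lean and 1.21 to 3.88 in obese mice. No other gene of the 18 collagens or the 28 matrix genes was called, and the list medians were -0.18 and -0.10, or 0.00 and 0.02 without obese mice 0 and 4.

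Most macrophage genes rose on both diets without a called difference. Of 18 macrophage genes 12 rose in lean and 14 in obese mice, beside 3.27% and 26.8% of all genes, and the median difference was 0.25, with 1 gene called. Itgam, which encodes CD11b, had tumor changes of 1.52 (adjusted p = 0.00167) and 2.23 (adjusted p = 1.87e-06) and a difference of 0.71 ± 0.34 (adjusted p = 0.157). Emr1, which encodes F4/80, had 1.28 and 1.57 and a difference of 0.29 ± 0.33 (adjusted p = 0.549). For Cd68, a lysosomal protein of macrophages, the difference was -0.19 ± 0.40 (adjusted p = 0.769) and changed sign without the tumor-associated pad of lean mouse 2 (0.024). C1qtnf3, a secreted protein of the C1q family, rose in both groups, by 3.13 and 3.49. Its difference changed sign without obese mouse 0, to -0.30. Ccl2, which draws monocytes, rose by 2.80 and 3.14, with a difference of 0.34 ± 0.60 (adjusted p = 0.718). Over 10 genes that the study picked from these samples for their tumor response, C1qtnf3 and Ccl2 among them, the median difference was 0.31 (0.00207 without obese mice 0 and 4), 9 rose in lean and 10 in obese mice, and, being so chosen, they are no independent evidence of that rise. The 17 genes of lipid-associated macrophages and lysosomes had a median of 0.21 (0.33 without these mice), with Cd63 the only call.

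The type I interferon response rose in tumor-associated pads on both diets. Of 22 genes 21 rose in lean mice and 22 in obese mice, beside 3.27% and 26.8% of all genes, with median changes of 1.88 and 2.12. None had a difference with an unadjusted p under 0.05 or was called by edgeR, and the differences ran from -0.28 to 1.24 with a median of 0.13, or -0.11 without obese mice 0 and 4. Slfn4, an interferon-induced gene of myeloid cells, had 4.32, 4.86, 3.97, 2.76 and 0.19 in the lean mice and 3.93 to 6.57 with a median of 4.86 in the obese mice. The change of lean mouse 9 was far below that of every other mouse. Its difference was 1.24 ± 0.83 (adjusted p = 0.291), and that of Usp18, which removes the ubiquitin-like ISG15, was 0.66 ± 0.43 (adjusted p = 0.285). With standard errors of this size a difference as large as those of many called genes would not have passed.

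Chemokines and cytokines were called in no case by edgeR. Of 20 chemokines 6 rose in lean and 12 in obese mice, beside 3.27% and 26.8% of all genes. The median difference was 0.39 (0.19 without obese mice 0 and 4). At an unadjusted p under 0.05 there were 2 positive and 3 negative differences, beside 15.8% and 17.1% of all genes. Cxcl10, an interferon-induced chemokine for T cells, had a difference of 1.96 ± 0.73 (adjusted p = 0.0819). Ccl19, a chemokine of lymphoid tissue, had -4.08 ± 1.57 (adjusted p = 0.0882), with control pads of obese mice at 0.307 to 38.8 (median 0.658) CPM, and 0.55 without those of obese mice 1 and 3. Il1b, the inflammatory cytokine, had tumor changes of -0.33 to 2.35 in lean and 1.85 to 4.67 in obese mice and a difference of 2.17 ± 0.73 (adjusted p = 0.0653). For Tgfb1, which drives fibrosis and restrains T cells, it was 0.61 ± 0.19 (adjusted p = 0.0601). Of 15 cytokine and acute phase genes 2 positive and 1 negative differences had an unadjusted p under 0.05, with a median of 0.10, or 0.16 without obese mice 0 and 4.

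Lymphocyte and antigen presentation genes had no calls either. The median differences were -0.76 for 19 T and NK cell genes, -1.48 for 11 B and plasma cell genes, 0.09 for 18 genes of MHC class I and the interferon-gamma response and -0.28 for 11 of MHC class II. The first pair and the last turned sign without the control pads of obese mice 1 and 3, to 1.72, 2.63 and 0.45, so no direction can be given for these lists. Without the control pad of obese mouse 3 alone the T and NK cell median was -0.02 and the B and plasma cell median -0.87, and without that of obese mouse 1 they were -0.25 and -0.69. Without obese mice 0 and 4 the T and NK cell and MHC class I medians were -1.26 and -0.10. In edgeR 1, 2, 1 and 0 of them had an unadjusted p under 0.05. Cd247, the zeta chain of the T cell receptor, had a difference of -1.62 ± 0.71 (adjusted p = 0.12), and of -0.37 without the control pads of obese mice 1 and 3. The plasma cell gene Igj, the joining chain of IgA and IgM, ranged from 1.29 to 115 CPM among obese control pads, highest in mice 1 and 3, and its difference was -3.78 ± 1.49 (adjusted p = 0.0937), or -0.23 without these pads. Sdc1, a proteoglycan of plasma cells and epithelium, had a difference of 0.98 ± 0.39, not called (adjusted p = 0.0938) but passed with the mouse as a block (adjusted p = 0.034). B2m, the light chain of MHC class I, had a difference of -0.47 ± 0.19 (adjusted p = 0.0985), and the neutrophil gene S100a8 -2.48 ± 1.08 (adjusted p = 0.119). Only 4 of the neutrophil and 3 of the erythroid genes passed the filter, with medians of -0.46 (-0.14 without obese mice 0 and 4) and -0.65 and no call.

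Genes of cell division had positive differences. All 30 tested genes of the cell cycle and DNA replication rose in obese mice and 1 did in lean mice, beside 26.8% and 3.27% of all genes. All 30 differences were positive, 23 of them at an unadjusted p under 0.05, where 15.8% of all genes had such a positive difference, and the median was 1.32. It was 0.82 without obese mice 0 and 4, whose mean tumor changes over the list were 3.04 and 3.15, against 1.49 for the lowest obese mouse and 1.57 for the highest lean mouse. Rrm1, the large subunit of ribonucleotide reductase (chr7:102441695-102469771, plus strand), was the only call. It had 28.8, 35.9, 35.5, 57.5 and 39.5 CPM in lean control and 48.6, 47.3, 43.3, 71.6 and 39.5 CPM in lean tumor-associated pads, and 32.9 to 51.6 (median 37.6) and 75.8 to 252 (median 127) CPM in those of obese mice. Control pads overlapped, every obese tumor-associated pad lay above every lean one, and the difference was 1.52 ± 0.34 (adjusted p = 0.0373).

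The 26 ribosomal protein genes all rose in obese mice and none did in lean mice, beside 26.8% and 3.27% of all genes. The median difference was 0.52 and was 0.17 without obese mice 0 and 4. Rps2, a protein of the small subunit, was called, with a difference of 1.15 ± 0.33 (adjusted p = 0.0494), but not with the mouse as a block (adjusted p = 0.0818). Its tumor changes in obese mice ran from 0.29 to 2.36, the latter in mouse 4, and ribosomal protein genes have many processed copies with which reads could have been shared. The germline and embryonic genes also had positive differences, 10 of 10, with a median of 3.02 and of 1.60 without mice 0 and 4. None was called in edgeR or had an unadjusted p under 0.05. Tex11, a meiosis gene, had 0.116, 0, 0.306, 0.352 and 0.339 CPM in lean control and 1.67, 0, 0.136, 0.386 and 0.154 CPM in lean tumor-associated pads, and 0 to 3.72 (median 0.661) and 2.46 to 46.7 (median 15.3) CPM in those of obese mice.

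The genes called with a positive difference and the smallest p-values were of several kinds. Aldh9a1, an aldehyde dehydrogenase of carnitine synthesis (chr1:167349991-167368532, plus strand), had tumor changes of -0.16, -0.16, -0.09, -0.35 and -0.17 in lean mice and 0.52 to 1.06 with a median of 0.65 in obese mice. It was lower in the tumor-associated pad of every lean mouse and higher in that of every obese mouse, and the difference was 0.92 ± 0.16 (adjusted p = 0.031). Glrx, glutaredoxin, which reduces protein disulfides with glutathione, had -0.48 to 0.81 in lean and 1.07 to 2.50 in obese mice and a difference of 1.42 ± 0.27 (adjusted p = 0.032). Rnh1, the ribonuclease inhibitor, had -0.08 to 0.26 and 0.74 to 1.00 and a difference of 0.68 ± 0.13 (adjusted p = 0.032). Socs6, an adaptor that marks receptor kinases for degradation, gave -0.10 to 0.03 and 0.28 to 1.04, with a difference of 0.70 ± 0.13 (adjusted p = 0.031). None of these changes overlapped between the diets.

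Akt1, a kinase downstream of the insulin receptor, was the only call among 15 genes of insulin and growth factor signaling, whose median was -0.39, or -0.12 without obese mice 0 and 4. Its difference was small, 0.41 ± 0.11 (adjusted p = 0.0463), and did not pass with the mouse as a block (adjusted p = 0.0576).

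Pde7a, a phosphodiesterase that breaks down cyclic AMP (chr3:19223108-19311322, minus strand), had the smallest p-value of all genes. It had 71.5, 56.7, 56.7, 72.3 and 61.4 CPM in lean control and 56.6, 63.6, 57.7, 69.9 and 56.4 CPM in lean tumor-associated pads. Obese control pads had 129 to 162 (median 156) CPM and obese tumor-associated pads 54.1 to 83.2 (median 72.7) CPM. Obese control pads stood above all other libraries, and the obese tumor-associated pads overlapped both lean groups. The tumor change was -0.07 (adjusted p = 0.933) in lean and -1.13 (adjusted p = 6.34e-07) in obese mice, and the difference was -1.06 ± 0.16 (adjusted p = 0.0163). It was called in 22 of 22 fits without 1 library, in 8 of 11 without 1 mouse, and without obese mice 0 and 4 (-0.87).

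The other genes called with a negative difference and the smallest p-values had diverse roles. Plcg1, phospholipase C gamma, which signals from growth factor receptors, had tumor changes of -0.36 to -0.08 in lean and -1.42 to -0.52 in obese mice and a difference of -0.83 ± 0.15 (adjusted p = 0.031). Inpp1, which removes phosphate from inositol phosphates, had -0.46 to 0.08 and -1.02 to -0.55, with -0.74 ± 0.15 (adjusted p = 0.0371). Ap3m2, a subunit of a vesicle adaptor, had 0.25 to 0.58 in lean mice and -0.98 to -0.17 in obese mice, that is up in every lean and down in every obese mouse, and the difference was -0.90 ± 0.16 (adjusted p = 0.031). Differences were -1.32 ± 0.24 (adjusted p = 0.031) for Ctnnal1, a catenin-like protein, -0.65 ± 0.12 (adjusted p = 0.031) for Scaper, a protein that binds cyclin A in the ER, and -1.29 ± 0.25 (adjusted p = 0.032) for Trp53i11, a gene induced by p53. Their tumor changes were -0.06 to 0.50, -0.30 to -0.07 and -0.73 to 0.41 in lean and -1.75 to -0.28, -1.09 to -0.55 and -1.93 to -0.74 in obese mice. Rab25, a GTPase of epithelial cells, had -1.79 ± 0.35 (adjusted p = 0.0371). Its obese tumor-associated pads held 0.947 to 2.59 (median 1.76) CPM against 11.2, 9.33, 15.2, 15.7 and 13.1 CPM in the lean ones, and obese mouse 1 (-0.38) overlapped the lean mice. The transcripts D830031N03Rik and 4930594C11Rik had differences of -0.78 ± 0.12 (adjusted p = 0.0167) and -1.41 ± 0.25 (adjusted p = 0.031), and the latter lies within Mgat4a, with which its reads could be confused.

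Several of the named genes overlap another gene on the opposite strand in GENCODE M21, among them Pdia6 with Atp6v1c2, Gapdh with Iffo1, Plcg1 with Zhx3, Hsp90b1 with 1810014B01Rik, Cebpb with Tmem189 and Csn3 with 1700066N21Rik. The strand setting of the counting is not given in the sources used here, so reads of these pairs may not have been told apart.

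The endothelial and the mammary epithelial lists held negative differences alone. All 15 endothelial genes had a negative difference, with a median of -0.72, 9 at an unadjusted p under 0.05 (17.1% of all genes) and Pecam1 called (2.34% of all genes). In obese mice 11 fell and 1 rose, beside 27.7% and 26.8% of all genes, and in lean mice 0 fell and 1 rose, beside 0.913% and 3.27%. The median was -0.35 without obese mice 0 and 4. Pecam1, the CD31 antigen of endothelial junctions (chr11:106654217-106750628, minus strand), had 165, 188, 178, 160.3 and 189 CPM in lean control and 261, 262, 217, 187 and 231 CPM in lean tumor-associated pads, and 308 to 401 (median 357) and 96.2 to 346 (median 207) CPM in those of obese mice. The tumor changes were 0.66, 0.48, 0.29, 0.22 and 0.29 in lean mice and -1.87 to 0.07 with a median of -0.69 in obese mice, in which mice 0 and 4 were lowest. The difference was -1.13 ± 0.31 (adjusted p = 0.0463).

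All 20 epithelial genes had a negative difference too, with a median of -1.61. Of them 15 had an unadjusted p under 0.05 (17.1% of all genes), and Csn3 and Cdh1 were called (2.34% of all genes). The median was -1.01 without obese mice 0 and 4. Csn3, a milk casein, had 102, 94.8, 94.3, 42.4 and 92.9 CPM in lean control and 87.5, 67, 134, 48.9 and 122 CPM in lean tumor-associated pads, and 18.2 to 48.8 (median 30.9) and 2.71 to 18 (median 8.21) CPM in those of obese mice. The difference was -2.05 ± 0.51 (adjusted p = 0.0419). Cdh1, E-cadherin, had -1.74 ± 0.49 (adjusted p = 0.0474) and did not pass with the mouse as a block (adjusted p = 0.0784). For both genes obese mouse 1 lay among the lean mice, with changes of -0.02 and 0.35. Epithelial genes were lower in obese than in lean control pads as well, by their summed CPM given above. How much of the ducts each sample held was not measured, and its part in these differences was not tested.

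Pericyte, nerve and muscle genes were not called in edgeR. The 10 pericyte and smooth muscle genes had a median difference of -1.14 (-0.68 without obese mice 0 and 4) and 8 an unadjusted p under 0.05. Abcc9, a potassium channel subunit of pericytes, had -1.13 ± 0.38 (adjusted p = 0.0643), and Myocd, a coactivator of smooth muscle genes, -1.75 ± 0.59 (adjusted p = 0.0656). The 10 Schwann cell genes had a median of -0.75, with -1.76 ± 0.58 (adjusted p = 0.0633) for Sox10, their lineage factor. Both lists had no positive and 8 and 2 negative differences at an unadjusted p under 0.05, beside 15.8% positive and 17.1% negative of all genes. The 7 skeletal muscle genes had a median of -2.60, with summed levels of 67.6 to 1139 CPM in obese control and 9.61 to 164 CPM in obese tumor-associated pads. Without the control pad of obese mouse 1 the median was -0.39. Of these genes 3 had an unadjusted p under 0.05. Des, an intermediate filament of muscle, had a difference of -1.37 ± 0.50 (adjusted p = 0.0782), or -0.90 without that pad.

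Fibroblast and progenitor genes had a median difference of -0.60 over 18 genes. None was called in edgeR, and 4 had a negative difference at an unadjusted p under 0.05, beside 17.1% of all genes. Cd55, a complement regulator of interstitial progenitors, had tumor changes of 0.29 to 0.85 in lean and -2.65 to 0.04 in obese mice, without overlap, and a difference of -1.37 ± 0.52 (adjusted p = 0.0868). Dpt, dermatopontin of the matrix, had -0.94 ± 0.40 (adjusted p = 0.11).

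Most adipocyte genes fell in obese mice, and no negative difference among them was called. Of 20 genes of adipocyte identity 18 fell in obese and 0 in lean mice, beside 27.7% and 0.913% of all genes, and the median difference was -0.67, but -0.17 without obese mice 0 and 4. The medians for lipolysis and lipid droplets (13 genes) and for triglyceride synthesis (16 genes) were -0.60 and -0.54, and -0.11 and 0.01 without these mice. Their mean tumor change over the adipocyte list was -2.69 and -3.22, against -0.17 in obese mouse 1. Cidec, which fuses lipid droplets, had tumor changes of -0.61, -0.40, -0.64, -0.61 and 0.04 in lean mice and -3.94 to -0.27 with a median of -1.35 in obese mice, with overlap, and a difference of -1.11 ± 0.50 (adjusted p = 0.129). For Plin4, a coat protein of lipid droplets, it was -1.07 ± 0.52 (adjusted p = 0.154).

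In these lists 2 genes were called, both with a positive difference. Gyk, glycerol kinase, had changes of -0.41 to 0.04 in lean and 0.56 to 0.93 in obese mice and a difference of 0.89 ± 0.21 (adjusted p = 0.0396). Cebpb, a transcription factor of early adipogenesis and of inflammation, had -0.49 to 0.27 and 0.49 to 0.95 and a difference of 0.87 ± 0.20 (adjusted p = 0.0396). The 12 genes of thermogenic fat had a median difference of 0.27 and the 15 clock genes -0.31 (0.54 and -0.11 without obese mice 0 and 4), with no call in either. At an unadjusted p under 0.05 there were 0 thermogenic genes. Of the clock genes 1 had a positive and 6 a negative difference at that level, beside 15.8% and 17.1% of all genes. Bhlhe40, a repressor in the clock that hypoxia induces, had 0.82 ± 0.24 (adjusted p = 0.0535) and passed with the mouse as a block (adjusted p = 0.0436). Its relative Bhlhe41 had -1.01 ± 0.37 (adjusted p = 0.079).

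**Figure D4:**
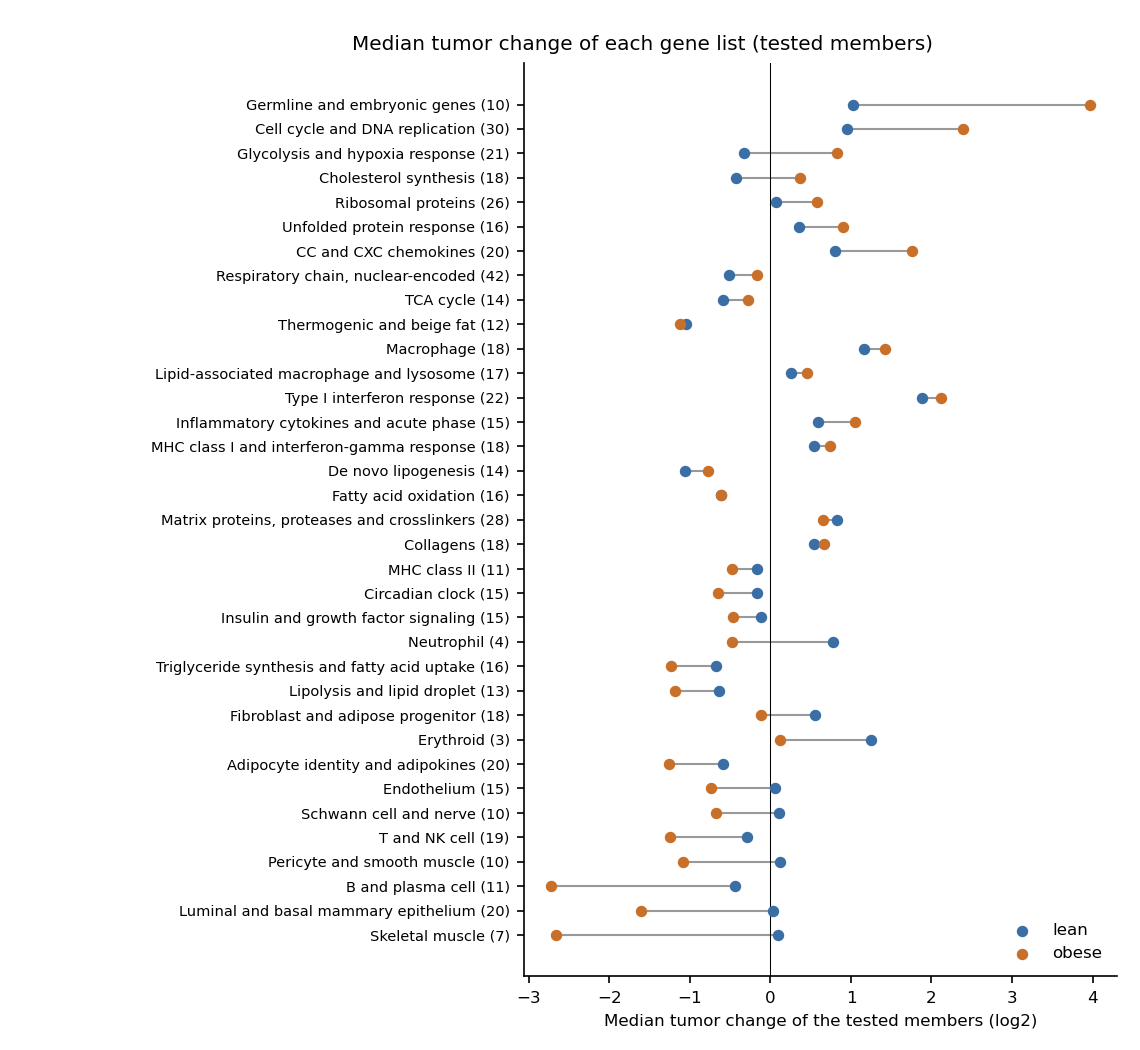
Median tumor change of the tested genes of each list (horizontal axis, log2) in lean mice (blue) and obese mice (orange), joined by a line, with lists ordered by their median difference (vertical axis, number of genes in brackets). Glycolysis ran from -0.32 in lean to 0.82 in obese mice, and the epithelial list from 0.04 to -1.61.

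**Figure D5:**
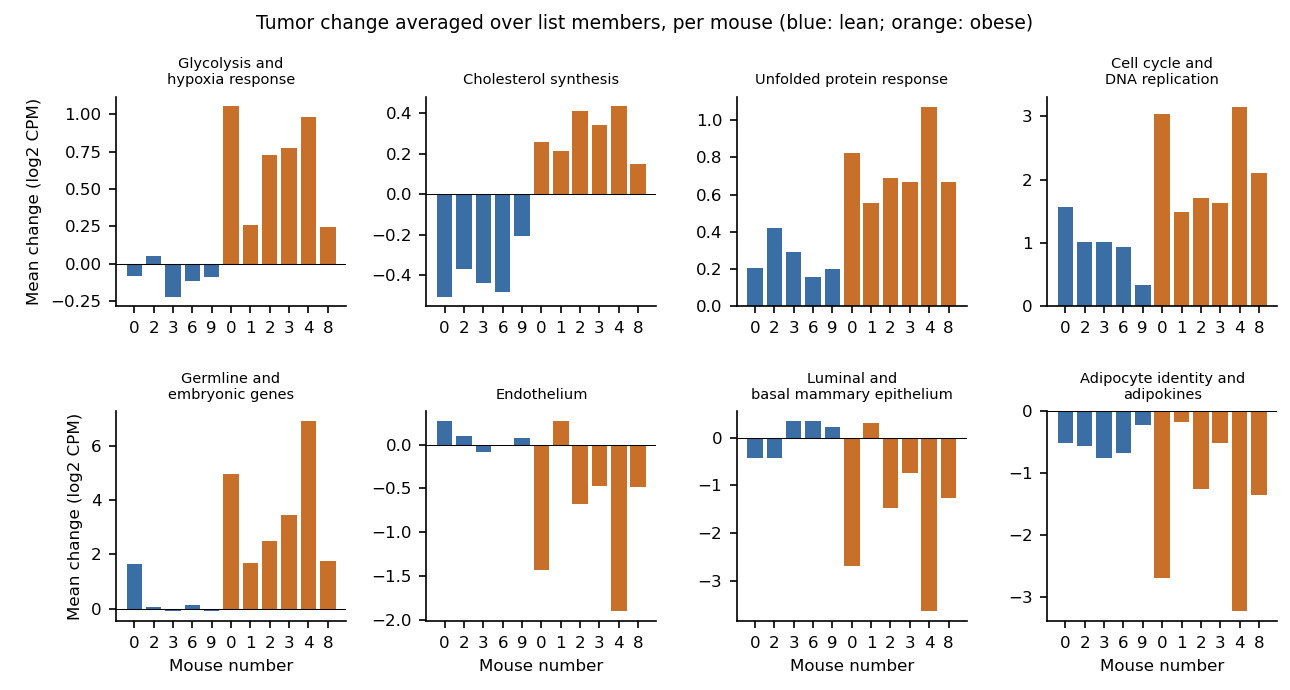
Mean tumor change over the genes of selected lists (log2 CPM) for each mouse (horizontal axis, mouse number), 1 bar per mouse, blue for lean and orange for obese. The bars of cholesterol synthesis lay at -0.51 to -0.21 in lean and 0.15 to 0.44 in obese mice, and those of the epithelial list at -0.43 to 0.35 and -3.63 to 0.30.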

How the data were processed

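Total RNA of control and tumor-associated IWAT was depleted of ribosomal RNA and sequenced in 22 libraries. Per the labels and the study's methods, reads were filtered with prinseq, aligned to mm10 with STAR 2.4.0f and counted per gene with HTSeq; the annotation and strand setting are not given in the sources used here. The raw counts per gene in all libraries were deposited by the authors in 1 table, with 0 columns of other series, and reads in no gene (38.5% to 48.8% of a library's lines) stayed out of library sizes. Libraries held 5759775 to 8598108 counts on genes.

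Samples were grouped by diet and pad from the labels, and members and gene lists were chosen with earlier results of these data known. Genes were filtered with filterByExpr (minimum count 10), scaled by TMM and fitted with edgeR 4.0.16 (quasi-likelihood, 1 coefficient per group, R 4.3.3), with Benjamini-Hochberg adjustment and a threshold of 0.05. Per-mouse changes used log2 CPM with a prior count of 2 and a two-sided exact permutation test over mice. The study's methods name DESeq2 and state no block, so the fit reported had none. Pads with the same diet letter and number in their titles were taken to be from the same mouse. Correlations of their deviations from the group means were 0.112 to 0.626 in lean mice (median 0.508, 5 of 5 over 0.1). In obese mice they were -0.07 to 0.64 (median 0.168, 4 of 6 over 0.1). Pads of other mice had medians of -0.12 in lean and -0.07 in obese mice. For obese mice these correlations alone do not establish the pairing. Alternatives were the mouse as a block, limma-voom (limma 3.58.1) with the mouse as a random effect, DESeq2 1.42.0, other normalizations and filters, an adjusted p under 0.1, and leaving out libraries or mice; the last threshold, blocked fits without 1 mouse and the fits without obese mice 0 and 4 and without the control pads of obese mice 1 and 3 were chosen after seeing the data.

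Named genes were the 10 with the smallest p in each direction among called genes with at least 10 counts in every library of a group, up to 4 called genes per list, or the 2 with the smallest p where none was called, and 10 genes the study names. Others were chosen after their values were seen, as said beside them. Some genes that the rule names are not reported here. Scripts were tested on simulated counts. Positions are from GENCODE M21 (GRCm38) by symbol, 21777 of 23420 directly and 1278 through an older symbol, 72 of the 73 named genes among them. Promoters are from RefSeq. Counting error only limits single CPM values. The p-values of the reported edgeR fit measure the spread between libraries of a group and leave out the pairing of pads. Those of the permutation test measure the spread of paired changes between these mice.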

Additional observations from a re-analysis of the deposited data

Results flagged for a closer look

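Among the 73 genes reported under the naming rule, 42 had an obese minus lean difference at an adjusted p under 0.05 in edgeR's quasi-likelihood test with Benjamini-Hochberg adjustment, that is, a test of the difference between the effects of the tumor on both diets. On the log2 scale the positive differences were Aldh9a1 0.92, Ccr2 2.00, Pdia6 0.71, Cd44 0.98, Socs6 0.70, Creld2 0.81, Rnh1 0.68, Glrx 1.42, Pkm 1.54, Gapdh 2.02, Pgk1 1.86, Ldha 1.18, Gpi1 1.09, Sc4mol 1.47, Sqle 1.63, Fdps 1.34, Pdia4 0.55, Hsp90b1 0.57, Atp5g1 0.65, Cox7b 0.78, Sdhb 0.53, Dlst 0.53, Rrm1 1.52, Col8a1 2.07, Cd63 0.91, Cebpb 0.87, Akt1 0.41, Gyk 0.89 and Rps2 1.15. The negative differences were Pde7a -1.06, D830031N03Rik -0.78, 4930594C11Rik -1.41, Ap3m2 -0.90, Ctnnal1 -1.32, Plcg1 -0.83, Scaper -0.65, Trp53i11 -1.29, Inpp1 -0.74, Rab25 -1.79, Pecam1 -1.13, Csn3 -2.05 and Cdh1 -1.74. All 42 genes kept their sign in every alternative. This is no independent support for these genes, as they were chosen from libraries that the alternatives largely share. They were called in 4 to 22 of the 22 fits without 1 library, with a median of 11, and Pde7a was the only gene called in each of them. With the mouse as a block 37 passed and 5 did not. Without obese mice 0 and 4 only Pde7a and Ccr2 passed, and the adjusted p of the 42 genes ran from 0.0325 to 0.198.

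In 15 of the 218 sets of mice examined, 1 mouse lay far from the others by the 95% limit of Dixon's test, which chance alone passes in about 1 of 20 sets. For single genes the tumor change (log2 CPM) of that mouse was -0.08 for Rnh1 in lean mouse 6 and 1.00 in obese mouse 4, -0.00 for Sc4mol in lean mouse 2, 0.71 for Cox7b in obese mouse 4, 0.77 for Cd63 in lean mouse 2 and -0.39 for Acly in obese mouse 4. It was 3.17 for Ccl19 in lean mouse 0, -1.15 for Bhlhe41 in lean mouse 2, 2.28 for Tex11 in lean mouse 0 and -0.44 for Cpt1a in obese mouse 4. For the mean over a list it was 1.05 for collagens and 1.28 for matrix genes in lean mouse 2, -1.21 for fibroblast genes in obese mouse 4, 1.63 for germline genes in lean mouse 0 and -0.63 for clock genes in lean mouse 2.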

How the results depend on the processing

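The count of called differences, 711, depended on the processing. DESeq2 called 2365, and limma-voom with the mouse as a random effect 1309, of which 430 were positive and 879 negative. With the mouse as a replicate block edgeR called 604, of which 368 were among the 711, and it took the call from Akt1, Pdia4, Hsp90b1, Cdh1 and Rps2 and gave it to Elovl6, Acly, Sdc1 and Bhlhe40. Without a filter on low counts it called 18, and at an adjusted p under 0.1 3220 genes. RLE and upper-quartile scaling gave 708 and 715. Without the libraries whose titles carry an extra -2 the count was 1607, and the differences of Ccl19 and Igj turned to 0.65 and 0.0098. Without obese mice 0 and 4 it was 5, of which 1 was positive, and C1qtnf3 was -0.51. Without the control pads of obese mice 1 and 3, 726 differences were called and Ccl19 had 0.55. Leaving out 1 library or mouse gave 0 to 3568 called differences, -0.43 to 0.024 for Cd68 and -0.30 to 1.02 for C1qtnf3. The tumor change in lean mice, 605 calls, gave 918 with DESeq2, 1185 without the -2 titles, 1102 without obese mice 0 and 4, and 119 to 952 without 1 library or mouse, or 1361 without obese mouse 4 in the fit with the block. The tumor change in obese mice, 7882 calls, stayed within 1.5 times except without mice 0 and 4, with 4680. Over the alternatives 1924 of 1943 list medians moved by less than the spread between mice, and of 3930 differences of single genes 8 turned sign, 1097 lost and 84 gained the call. The cause was not tested. Depth limits genes at a few CPM.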

Other observations

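Several further genes with called differences are given here, all chosen after their values were seen, with adjusted p-values from edgeR as in the text. Tagln2, an actin-binding protein, had tumor changes of 0.84 in lean and 1.61 in obese mice and a difference of 0.77 ± 0.18 (adjusted p = 0.0379). For Capg, which caps actin filaments in macrophages, it was 0.92 ± 0.19 (adjusted p = 0.0373), for Zyx, zyxin of focal adhesions, 0.64 ± 0.14 (adjusted p = 0.0373), and for Tubb6, a tubulin, 1.20 ± 0.27 (adjusted p = 0.0373). Ckap4, an ER membrane protein that binds microtubules, had 1.23 ± 0.27 (adjusted p = 0.0373), and Padi4, a deiminase of neutrophils and macrophages, 2.18 ± 0.59 (adjusted p = 0.0463). Irg1, which makes itaconate in activated macrophages, had 0.531 ± 0.581 CPM in lean control, 0.533 ± 0.482 CPM in lean tumor-associated, 0.245 ± 0.231 CPM in obese control and 4.2 ± 2.39 CPM in obese tumor-associated pads (mean ± SD), with a difference of 3.91 ± 1.13 (adjusted p = 0.0492) that rests on few counts.

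Some genes had called differences with lower or unlike starting levels. Gpd2, the mitochondrial glycerol phosphate dehydrogenase, had 252 ± 74.3 CPM in lean control and 129 ± 46.7 CPM in lean tumor-associated pads, but 47 ± 5.73 and 63.9 ± 23.5 CPM in those of obese mice (mean ± SD). Its difference was 1.40 ± 0.34 (adjusted p = 0.0404). Aldh1l2, a mitochondrial enzyme of folate metabolism, had a mean of 7.81 CPM in obese control and 60.9 CPM in obese tumor-associated pads and a difference of 2.41 ± 0.56 (adjusted p = 0.0379). Among negative differences, Slc5a7, the choline transporter of cholinergic nerve endings, had 44.4 ± 15.1 CPM in lean control, 48.5 ± 14.7 CPM in lean tumor-associated, 83.2 ± 45.9 CPM in obese control and 15 ± 9.68 CPM in obese tumor-associated pads, and a difference of -2.59 ± 0.62 (adjusted p = 0.0396). For C6, a component of the complement attack complex, it was -2.52 ± 0.55 (adjusted p = 0.0373), and for Robo2, an axon guidance receptor, -2.75 ± 0.63 (adjusted p = 0.0375). Mfap2, a microfibril protein, rose in lean mice (1.20, adjusted p = 0.019), had a change of -0.13 in obese mice, and had a difference of -1.33 ± 0.38 (adjusted p = 0.0479).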
